A study of Homo sapiens with 3 samples.

Results

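The members described here were the 5 synthetic hairpins listed in a small RNA-seq count table, carrying i-2.2, miR-1, miR-122, miR-124 or miR-133a, together with miR-3591. They were chosen by name, as every entry of a synthetic hairpin plus both arms of miR-3591. This gave 12 mature arms, 10 synthetic and 2 of miR-3591, of 2590 mature miRNAs in 2817 rows. The libraries came from Flp-In T-REx 293 cells, which derive from HEK293, a line of human embryonic kidney origin. Cultures were transduced with a lentivirus carrying no hairpin (empty vector, the control), a miR-1 hairpin or a miR-122 hairpin, with 1 library each. In the vector, the hairpin sat in an intron of a GFP reporter whose cytomegalovirus promoter responds to doxycycline. Every culture, the control too, was selected for 6 days in Geneticin at 1 mg/mL and then kept for 7 days in doxycycline at 1 ug/mL, and 1000 ng of total RNA entered each library. The control thus shared the vector backbone, the selection and the drug with both miRNA lines. No library of a miR-124, miR-133a or i-2.2 line was among the 3 analysed here.

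A miRNA hairpin is cut by Drosha in the nucleus and by Dicer in the cytoplasm into a duplex of a 5p and a 3p strand. One strand, the guide, is loaded into an Argonaute protein and directs it to mRNAs, mainly through its seed, bases 2 to 8; the other, the passenger, is mostly discarded. miR-1 and miR-133a are muscle miRNAs made from shared transcripts, miR-122 is the dominant miRNA of hepatocytes, and miR-124 is a neuronal miRNA. The accepted guide is the 3p arm for miR-1, miR-124 and miR-133a and the 5p arm for miR-122. MIR3591 is annotated on the strand opposite MIR122.

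The native mature sequences are shown because arms with the same seed can share targets, and because the arms of miR-3591 are complementary to those of miR-122. RefSeq (GRCh38.p14) held 8 of the 12 arms. Each is written 5′ to 3′ with the seed in capitals.
miR-1-3p: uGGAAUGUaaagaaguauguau
miR-1-5p: aCAUACUUcuuuauaugcccau
miR-122-5p: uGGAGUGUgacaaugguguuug
miR-122-3p: aACGCCAUuaucacacuaaaua
miR-133a-3p: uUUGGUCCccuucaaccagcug
miR-133a-5p: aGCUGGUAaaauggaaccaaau
miR-3591-5p: uUUAGUGUgauaauggcguuuga
miR-3591-3p: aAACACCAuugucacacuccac

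All 3 guides shown began with U and all 3 passengers with A. The guides miR-1-3p and miR-122-5p were both 22 bases long and matched at 11 positions. Within the seed they differed at 1 base, A5G, counted from the 5′ end with the base of miR-1-3p first. The human miRNAs miR-206 and miR-613 also carried the seed of miR-1-3p, and miR-133b carried that of miR-133a-3p. No other mature miRNA among 2370 in RefSeq shared the seed of miR-122-5p or of either arm of miR-3591. A run of 20 bases of miR-3591-5p was the reverse complement of miR-122-3p, and a run of 21 bases of miR-3591-3p was that of miR-122-5p. In GRCh37, the assembly named hg19 in the labels, MIR1-1, one of the genes of miR-1, lies on chromosome 20 at 61151510 to 61151586 within MIR1-1HG and outside its exons. MIR133A2 lies in the same host at 61162119 to 61162220, over an exon. MIR122 lies on chromosome 18 at 56118306 to 56118390 over an exon of MIR122HG. The native hairpins of these miRNAs and of miR-124 had no entries among the counts used here, only the synthetic hairpins did. A read from a native gene could thus be counted only in a synthetic entry.

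The 3 libraries held 1636834 (control), 2892684 (miR-1) and 2577292 (miR-122) counts of mature miRNAs. The authors' pooled total exceeded their sum by 1886013 counts, called the other pooled libraries here; their number and vectors were not given in the sources used. Of the HEK293-associated miRNAs checked, miR-10a-5p, miR-10b-5p, miR-196a-5p and miR-7-5p together had 363407 to 460249 counts per library, while 5 blood miRNAs summed to at most 27, with miR-223-3p at 0. Of 5 muscle miRNAs, miR-206, miR-133b, miR-208a-3p and miR-208b-3p had at most 3 counts each, while miR-499a-5p had 41 in the control, 59 in miR-1 and 66 in miR-122. Liver miR-885-5p had at most 2. Of the neuronal miRNAs, miR-9-5p had 8030 to 8518 counts and miR-219a-5p had 14 to 26. There were no replicates, so all intervals cover the counting error of reads only and leave out variation between cultures. Reads carried no molecular identifiers, so copies of the same molecule could not be told apart. Intervals and p-values treat every read as independent, and the intervals may therefore be too narrow even for counting error. The p-values compare the reads of libraries, not conditions.

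Synthetic hairpins held 38.1% of all miRNA counts in the miR-1 library (95% Wilson interval 38.0% to 38.1%). They held 24.4% in the miR-122 library (24.4% to 24.5%) and 15.8% in the other pooled libraries (15.7% to 15.8%). In the control they held 0.0216% (0.0194% to 0.0239%), or 353 counts. In the miR-1, miR-122 and other pooled libraries, a different hairpin supplied almost all of these counts: miR-1, miR-122 and i-2.2, respectively. The control library, although labelled as carrying no hairpin, held 166 of its 353 counts in the arms of miR-1 and 127 in the arms of i-2.2.

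The miR-1 guide, miR-1-3p, had 166 counts in the control, 1100840 in the miR-1 library, 369 in the miR-122 library and 303 in the other pooled libraries. The miR-1 library stood far above the other columns, and none of those was at 0. Per 1000000 endogenous counts, which leave out all 12 members, miR-1-3p stood at 614410 in the miR-1 library, 190 in the miR-122 library, 191 in the other pooled libraries and 101 in the control. After scaling on endogenous miRNAs, the miR-1 library exceeded the control 6217-fold (95% exact interval 5340 to 7283), a log2 ratio of 12.60 that fell to 11.87 with the synthetic hairpins counted in the library size. Its seed came almost wholly from miR-1-3p: miR-206 had 3 counts in the miR-122 library and 0 elsewhere, and miR-613 had 0 throughout. Sequences with this seed thus made up 0.0101% of the control, 38.06% of the miR-1 library and 0.0144% of the miR-122 library.

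The miR-1 passenger, miR-1-5p, had 98 counts in the miR-1 library, against 0 in each other column. It was at least 30.6-fold higher in the miR-1 library than in the control, taking 0 as at most 3 counts per library. With 33.9 RPM (reads scaled to 1000000 miRNA reads per library) it ranked 269 among mature miRNAs of its library, whereas its guide ranked 1. The guide made up 99.991% of both arms (95% Wilson interval 99.989% to 99.993%).

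The miR-122 guide, miR-122-5p, had 10 counts in the control, 10 in the miR-1 library, 627576 in the miR-122 library and 11 in the other pooled libraries. The columns outside its own line lay close together, at 5.58 to 6.92 per 1000000 endogenous counts, against 322514 in the miR-122 library. Its ratio per endogenous count between the control and the miR-1 library was 1.09 (95% exact interval 0.409 to 2.93). The difference from the control was 56210-fold, with a wide interval of 30565 to 117217 that reflects the 10 control counts. The passenger, miR-122-3p, had 1635 counts in its own library, 1 in the other pooled libraries and 0 elsewhere. It was at least 488-fold higher in the miR-122 library than in the control. It ranked 87, and the guide made up 99.740% of both arms (99.727% to 99.752%).

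The i-2.2 hairpin had counts in 2 columns. Its 5p arm had 280248 counts in the other pooled libraries, where it ranked 1, and 120 in the control. Its 3p arm had 16647 counts in the other pooled libraries, ranking 24, and 7 in the control. Both arms were at 0 in both miRNA lines, so the control differed from both of them. The 5p arm was at least 42.7-fold lower in the miR-1 library and at least 44.7-fold lower in the miR-122 library than in the control. For the 3p arm these bounds were 2.49 and 2.61.

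Entries of the hairpins for miR-124 and miR-133a stayed low in every column. The neuronal guide miR-124-3p had 18 counts in the control, 15 in the miR-1 library, 12 in the miR-122 library and 14 in the other pooled libraries, and miR-124-5p had 17, 12, 16 and 9. The muscle guide miR-133a-3p had 13, 7, 15 and 8 counts in the same order. Its passenger, miR-133a-5p, had 2 counts in the control and 0 in the other columns, and miR-133b, which shares the miR-133a seed, had 1 count in the control alone. Per endogenous count, the 95% exact interval of the ratio included 1 for every pair of columns of miR-124-3p, miR-124-5p and miR-133a-3p. The widest on a ratio scale, for miR-133a-3p in the miR-1 library against the other pooled libraries, ran from 0.240 to 2.45. For the control against the miR-1 library it ran from 0.754 to 6.02. Differences of several fold were thus not detectable at this depth.

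Arm balance differed between the hairpins that were highly expressed. The passenger stood at 89.0 counts per 1000000 guide counts for miR-1 (95% exact interval 72.3 to 108) and at 2605 for miR-122 (2480 to 2735). For i-2.2 the 3p arm stood at 59401 per 1000000 5p counts in the other pooled libraries (58476 to 60337). The intervals did not overlap. Relative to the major arm, the minor arm was 29.3 times as frequent in the miR-122 as in the miR-1 hairpin, and 22.8 times as frequent in i-2.2 as in miR-122. These hairpins were measured in different libraries, so hairpin and library cannot be told apart.

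Endogenous hairpins gave the range of arm balance for comparison. Among hairpins with both arms listed and at least 100 counts over both, the major arm held at least 99% in 38.5% of 195 hairpins in the control, 39.8% of 196 in the miR-1 library, 42.2% of 199 in the miR-122 library and 39.8% of 191 in the other pooled libraries. The major arm shares of the miR-1 and miR-122 hairpins were on the high side of this range without lying outside it. This comparison is limited by depth, since 0 endogenous hairpins in either library had as many counts. A hairpin with few counts, all on 1 arm, has a share of 100%, so shallow hairpins can pass a deep one. In the miR-1 library, 20 of 196 endogenous hairpins (10.2%) had a major arm share at least as high as that of the miR-1 hairpin. The most abundant of these was mir-92a-2, with 53023.5 counts on its 3p side and 3 on its 5p side. Its 3p reads are shared with another hairpin and were divided by the authors. Others of the 20 also had fractional counts from divided reads, which limits the comparison further. In the miR-122 library, 47 of 199 (23.6%) were at least as one-sided as miR-122, among them mir-20a, a member of the miR-17-92 cluster, with 61335 counts on its 5p side and 30 on its 3p side, and mir-21, with 58598 and 55. The i-2.2 share of 94.4% was reached or exceeded by 133 of 191 endogenous hairpins in the other pooled libraries, and lay below their median of 98.1%. The most abundant endogenous hairpins of the control were mir-10a, with a 5p share of 99.01% there, 99.17% in the miR-1 and 99.30% in the miR-122 library, mir-148a, with a 3p share of 99.09%, 99.03% and 99.21%, and mir-20a, with a 5p share of 99.91%, 99.94% and 99.95%.

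At low counts, the arms of miR-124 were balanced: over the 3 libraries both arms had 45 counts, with a 95% Wilson interval of 39.9% to 60.1% for the 3p share. Among endogenous hairpins with at least 100 counts in a library, few had a major arm of at most 60%. These were 6 of 195 in the control, 7 of 196 in the miR-1 library and 5 of 199 in the miR-122 library. The miR-124 hairpin had only 35, 27 and 28 counts in these libraries. It thus fell short of that minimum and is not ranked among them. In the other pooled libraries its 3p share was 60.9% (40.8% to 77.8%), from 23 counts. The miR-133a hairpin had 35 counts of the 3p and 2 of the 5p arm over the 3 libraries, a 3p share of 94.6% (82.3% to 98.5%).

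Whether a hairpin had the same arm split in different libraries was then tested, for 25 pairs of columns in which it had at least 3 counts. Outside i-2.2, every pair had a column with few counts or with fewer than 1 passenger count expected. At most large differences could be detected in those pairs, so a lack of passing pairs does not show equal splits. Where neither column had a passenger count, the pair could not pass at all. Such pairs were still counted in the adjustment. By two-sided Fisher's exact test, 0 pairs passed an adjusted p of 0.05 (Benjamini-Hochberg), and 1 pair had an unadjusted p under 0.05. That pair was miR-122 in its own library against the other pooled libraries, with 11 guide counts and 1 passenger count (Fisher's exact p = 0.0308, adjusted p = 0.769). For i-2.2, the 5p share was 94.5% in the control (89.1% to 97.3%) and 94.4% in the other pooled libraries (94.3% to 94.5%; Fisher's exact adjusted p = 1). At the arm ratio of the other pooled libraries, 120 counts of the 5p arm went with 7.13 of the 3p arm, and 7 were counted. The same calculation for miR-1-3p gave fewer than 1 passenger count in each library outside the miR-1 line, the highest being 0.0328 in the miR-122 library, so the counts of 0 for miR-1-5p there did not bear on the arm ratio. For miR-122 it gave 0.0261 for each of the other lines.

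Counts of each guide outside its own line were small shares of the count inside it. For miR-1-3p these were 0.0151% in the control (95% Poisson interval 0.0129% to 0.0176%), 0.0335% in the miR-122 library (0.0302% to 0.0371%) and 0.0275% in the other pooled libraries (0.0245% to 0.0308%). For miR-122-5p they were 0.00159% in the control (0.000764% to 0.00293%) and as much for the miR-1 library. In the other pooled libraries miR-122-5p stood at 0.00175% (0.000875% to 0.00314%). For i-2.2-5p, set against the other pooled libraries, the control held 0.0428% (0.0355% to 0.0512%) and both miRNA lines at most 0.00132%. The miR-122-5p intervals are wide, from counts of 10 and 11. In the control and the other pooled libraries they still lay below those of miR-1-3p. The own count of each guide came from a single library, so guide and library cannot be told apart. Per endogenous count, miR-1-3p in the control was 0.535 times that in the miR-122 library (95% exact interval 0.443 to 0.644) and 0.532 times that in the other pooled libraries (0.437 to 0.645). Between the miR-122 and the other pooled libraries the ratio was 0.994 (0.852 to 1.16). What these reads came from was not tested.

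Ratios between libraries were scaled by TMM, a trimmed mean of ratios, over the 513 endogenous miRNAs that averaged 10 counts or more. On this scale the miR-122 library exceeded the control in miR-1-3p 1.99-fold (95% exact interval 1.65 to 2.41), just under the 2-fold limit used for calls. Between the same libraries 9.75% of the 513 were past that limit, and 17 were at least as far above the control as miR-1-3p. With the synthetic hairpins counted in the library size, the log2 ratio of miR-1-3p fell from 0.99 to 0.50, and with TMM over miRNAs averaging at least 100 counts it was 1.01, past the limit.

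Of the 12 members, 9 averaged 10 counts or more, and 4 of the 9 reached that mean through a single library, so the counts of members past 2-fold are a description. Between the miR-122 library and the control 4 of the 9 were past 2-fold, beside the 9.75% of endogenous miRNAs: miR-122-5p, miR-122-3p and miR-3591-5p higher and i-2.2-5p lower in miR-122. Between the miR-1 library and the control, 3 were past 2-fold, miR-1-3p and miR-1-5p higher and i-2.2-5p lower in miR-1, beside 3.12% of the 513 endogenous miRNAs. Between the miR-1 and miR-122 libraries, 5 were past 2-fold, beside 8.38%; these were both miR-1 arms, higher in the miR-1 library, and both miR-122 arms and miR-3591-5p, lower in it. The endogenous background in these comparisons split into 17 higher and 33 lower in miR-122 than in the control, 11 higher and 5 lower in miR-1 than in the control, and 28 higher and 15 lower in miR-1 than in miR-122. With the synthetic hairpins counted in the library size these became 6 and 94, 1 and 104, and 19 and 26, as the median log2 ratio of all endogenous miRNAs moved to -0.53, -0.72 and -0.22.

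The members were also set beside the endogenous miRNAs most confined to 1 library. Of the scaled counts in the 3 libraries, 99.95% of miR-1-3p lay in the miR-1 library and 99.997% of miR-122-5p in the miR-122 library. For miR-3591-5p, 99.94% lay in the miR-122 library. The share was 100% for miR-1-5p in the miR-1 library, miR-122-3p in the miR-122 library and i-2.2-5p in the control. The other pooled libraries are left out of these shares, and they held 99.96% of all counts of i-2.2-5p. Like miR-3591-5p, these arms passed the count filter through a single library. Their high shares were thus built in, and setting them beside endogenous miRNAs is a description only. The other members were not confined in this way. Their highest shares were 42.0% for miR-124-3p and 39.9% for miR-124-5p, both in the control, and 40.7% for miR-133a-3p in the miR-122 library. Shares at least as high were reached by 137, 205 and 167 endogenous miRNAs. Among the same 513 endogenous miRNAs, the highest such share was 61.1%, for miR-4664-3p in the miR-122 library, with 28 counts in the control, 42 in miR-1 and 118 in miR-122. Next came miR-4742-3p in the miR-122 library (59.96%, from 6, 7 and 21 counts) and miR-1277-3p at 58.5% in the control (26, 12 and 8 counts).

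The miR-3591 entries followed the miR-122 line. miR-3591-5p had 1 count in the control, 0 in the miR-1 library, 1756 in the miR-122 library and 0 in the other pooled libraries. It was 1573-fold higher in the miR-122 library than in the control, with an interval of 282 to 62157 that rests on the single control count. On the log2 scale this was 10.06, and 8.11 with a pseudocount of 5 in place of 0.5. miR-3591-3p had 25 counts in the miR-122 library and 0 in the other columns, at least 7.46-fold higher than in the control. Both arms were therefore seen in the miR-122 library, and the 5p arm held 98.6% of them (95% Wilson interval 97.94% to 99.05%). In the same library, 93 of 199 endogenous hairpins had a major arm share at least as high.

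Within the miR-122 line, miR-3591-5p and miR-122-3p, which are complementary over 20 bases, had similar counts. They ranked 86 and 87 at 681 and 634 RPM. The ratio of miR-3591-5p to miR-122-3p was 1.07 (95% exact interval 1.003 to 1.150), so equality lay just outside the interval. The other complementary pair was far apart: miR-3591-3p had 0.00398% as many counts as miR-122-5p (0.00258% to 0.00588%), although the complementary run is 21 bases. Of the 630992 counts in the 4 arms, miR-122-5p held 99.46%, miR-3591-5p 0.278%, miR-122-3p 0.259% and miR-3591-3p 0.00396%. The deposited table gives counts and no read strand or read sequence, so the strand of the reads behind the miR-3591 entries was not tested.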

How the data were processed

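Per the study's methods, adapters were trimmed, reads under 18 nt were dropped, and identical reads were collapsed with miRDeep2. Reads were aligned to human hairpins of miRBase release 21, to which the synthetic hairpins had been appended. The values deposited by the authors were expected counts, an estimated count for each mature miRNA on each hairpin, with reads that fit several hairpins shared out; all member counts were whole. The authors also deposited RPM values, within 0.00652 RPM of the count scaled to 1000000, and a pooled total count over more libraries. The version of miRDeep2 was not given in the sources used here. The other pooled libraries are the pooled total minus the 3 libraries.

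Counts were summed per mature miRNA. Libraries were scaled by TMM (edgeR 4.0.16, R 4.3.3) on the 513 endogenous miRNAs averaging 10 counts or more, and log2 ratios used a pseudocount of 0.5. A 2-fold call needed more than 3 counts in 1 of the libraries, and 0 counts were taken as an upper limit of 3. Shares carry Wilson and ratios exact binomial intervals; arm splits were compared by two-sided Fisher's exact test (SciPy 1.17.1). No test between conditions was possible with 1 library each. Named were all members, the 3 endogenous hairpins with most counts in the control, up to 5 hairpins at least as one-sided as a member, of which 3 are given, and the 3 endogenous miRNAs with the highest share in 1 library. Members and lists were chosen with earlier results of these data known. The guide arms were taken from general knowledge, and for i-2.2 and miR-3591 the 5p arm was used.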

Additional observations from a re-analysis of the deposited data

How the results depend on the processing

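No paired analysis was possible because there was 1 library to a group, and for the same reason none could be left out. Over 42 results, 233 alternatives were computed; 204 stayed within 1.5 times (counts of miRNAs) or the 95% counting interval (other values), 29 moved, and 2 changed sign. Both sign changes were in the log2 ratio of miR-133a-3p, miR-122 against control, which was 0.05, -0.04 with the total of endogenous counts and -0.43 with the synthetic hairpins counted too, all within its interval. The arm shares and the number of differing arm splits did not move, and members have whole counts, so rounding could not move them. With the synthetic hairpins counted in the library size, the log2 ratio of miR-1-3p to the control was 11.87 in place of 12.60. A pseudocount of 5 lowered that of miR-3591-5p in the miR-122 library from 10.06 to 8.11, by construction at 1 control count. For miR-1 against control, then miR-122 against control, then miR-1 against miR-122, endogenous miRNAs at least 2-fold apart numbered 16, 50 and 43; without a filter 95, 137 and 132, and at a mean count of at least 100 only 1, 9 and 7. A pseudocount of 5 gave 8 in the first and 27 in the last, and the total count with synthetic hairpins 105 and 100 in the comparisons with control. At a stricter major-arm limit, with the minor arm at most 0.1% of both, 16.9% of endogenous hairpins passed in the control, 16.3% in miR-1 and 19.1% in miR-122, and at 1000 counts 48.1% in the control. Counting the highest hairpin alone raised the synthetic share to 0.0251%, 41.5% and 27.2%. The cause of the other shifts was not tested. Depth limits the arm ratios of miR-124, miR-133a and of guides outside their own line.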
